A study of Mus musculus with 6 samples.

Results

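The farnesoid X receptor gene Nr1h4 (FXR) and 9 other nuclear receptor genes were followed in mouse liver tumour cells with and without knockdown of the splicing factor gene Sf3b3. The members were taken by name and by presence in the deposited expression table. They are Nr1h4, the retinoid X receptors Rxra and Rxrb, the receptors Nr1h2, Ppard, Rara, Rarg and Thra, whose proteins pair with retinoid X receptors, and the orphan receptors Nr2f6 and Esrra. All 10 were among the 11866 genes listed, and all 10 were among the 10770 genes tested. The cells were HCC3-4, a line grown from a liver tumour of MYC transgenic mice, in both groups. The knockdown group (KD) carried a stable short hairpin RNA against Sf3b3 and the control group (PLKO) the pLKO.1-TRC vector, with 3 poly(A) RNA libraries in each. The labels number the libraries 1 to 3 in each group and do not say whether each had its own culture. The p-values therefore cover only the spread among these 6 libraries, and that spread may be technical. No second hairpin or rescue is named, so effects of lower Sf3b3 and of the hairpin or the selected cell population cannot be told apart.

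Nuclear receptors are transcription factors with a DNA-binding domain and a ligand-binding domain. FXR is activated by bile acids and is best known in liver and intestine, where it restrains bile acid synthesis and promotes bile acid export. It binds most of its DNA sites together with a retinoid X receptor, which is also the partner of the liver X, peroxisome proliferator-activated, retinoic acid and thyroid hormone receptors. Coactivators and corepressors that bind the ligand-binding domain set whether target genes are transcribed.

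Nr1h4 lies on the minus strand of chr10:89454234-89533585 (GRCm38, GENCODE M21) and has 3 annotated transcripts, all coding. Nr1h4-201 has 9 exons and 1452 coding bases, Nr1h4-202 has 9 exons and 1464, and Nr1h4-203 has 10 exons and 1422. Nr1h4-201 and Nr1h4-202 differ at the end of exon 3, which is 141 bases long in Nr1h4-201 and 153 in Nr1h4-202. The difference is 12 coding bases at chr10:89483372-89483383, the known insertion beside the DNA-binding domain that separates the long and short forms of FXR. The junction is shown because the series concerns FXR splicing. Capitals mark the 12 bases present in Nr1h4-202 and absent from Nr1h4-201, with 24 bases on each side:

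Nr1h4-201: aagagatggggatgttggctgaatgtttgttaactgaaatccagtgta

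Nr1h4-202: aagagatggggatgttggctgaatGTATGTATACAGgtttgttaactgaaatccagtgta

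The deposited values are 1 number per gene and library. They sum over transcripts, so the share of each form was not measured here, and the values below are levels of the gene as a whole.

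The 10 receptors covered the range from low to well-expressed genes. Nr1h2 had the highest mean in PLKO, 28.0 ± 4.08 FPKM (SD, n = 3; fragments per length of gene, scaled to a library size), at percentile 82.3 of all listed genes. Nr1h4 had the lowest, 4.35 ± 0.285 FPKM, at percentile 31.1. Between them the PLKO order was Rarg, Rxra, Thra, Rxrb, Esrra, Nr2f6, Rara and Ppard. The ranges of neighbours in that order overlapped at every step except the last, from Ppard to Nr1h4. In KD, Nr1h2 (35.1 ± 4.10 FPKM) was again at the top and Nr1h4 (3.73 ± 0.334 FPKM) at the bottom. The KD ranges were apart between Nr1h2 and Rxra, between Rxra and Thra, and between Ppard and Nr1h4, and overlapped at the other 6 steps. The plot of receptor levels shows this gap below Ppard in both groups. An order of FPKM depends on the gene lengths used. For Rxrb and Esrra the lengths recovered from the values, 3698 and 2539 bases, differ from the annotated 3973 and 4387, so their places are less certain.

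**Figure D1:**
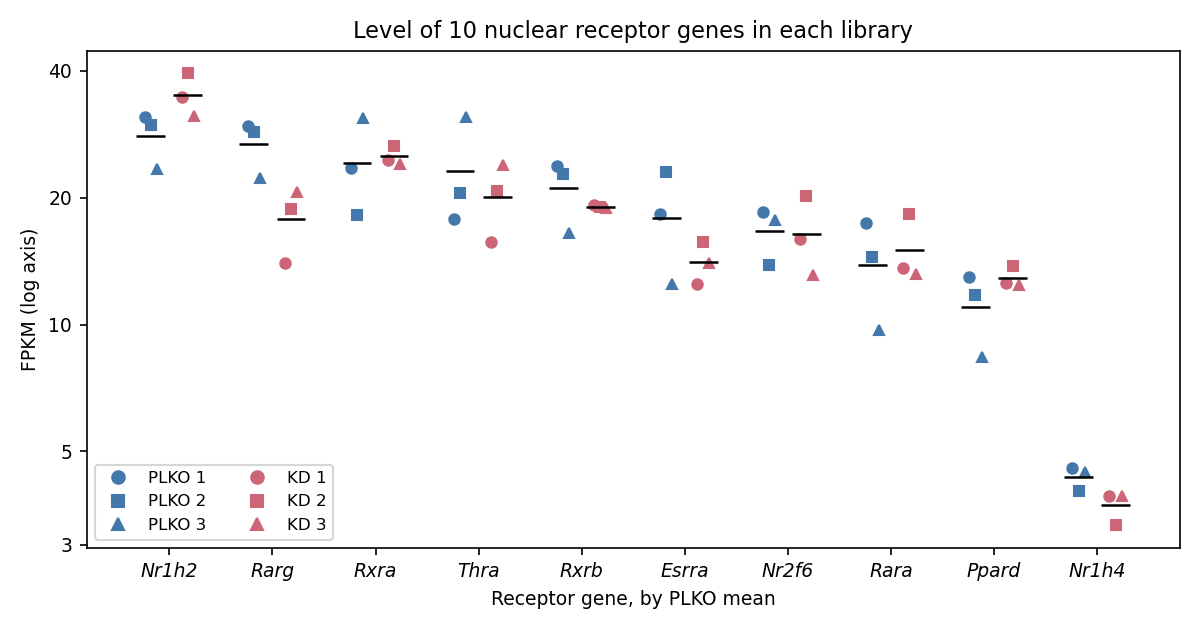
FPKM of each receptor in each library on a log axis, ordered by the PLKO mean. Circles, squares and triangles are libraries 1, 2 and 3, blue is PLKO, red is KD, and lines are group means (n = 3). Nr1h4 stands between 3.34 and 4.56 FPKM in all 6 libraries, under every other receptor.

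None of the 10 receptors passed the test between KD and PLKO (limma adjusted p under 0.05, over all tested genes), against 2.92% of the 10770 genes tested (1.12% higher and 1.79% lower). A single receptor, Rarg, had an unadjusted p under 0.05, against 27.6% of all genes. Voom on recovered reads also called none of the 10, while array weights called 3 (Nr1h4, Nr1h2 and Rarg) in a fit that called 56% of all tested genes. For 3 receptors the libraries of the groups did not overlap, with Nr1h2 higher and Nr1h4 and Rarg lower in KD. Over all tested genes the groups did not overlap for 32.1%, with 13.4% higher and 18.8% lower. The log2 fold changes (KD minus PLKO) were positive for 4 receptors and negative for 6, with a median of -0.08 and a median size of 0.20. Over all tested genes the median was -0.04 and the median size 0.40. The plot of fold changes shows that 9 of the 10 intervals span 0, all but that of Rarg.

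**Figure D2:**
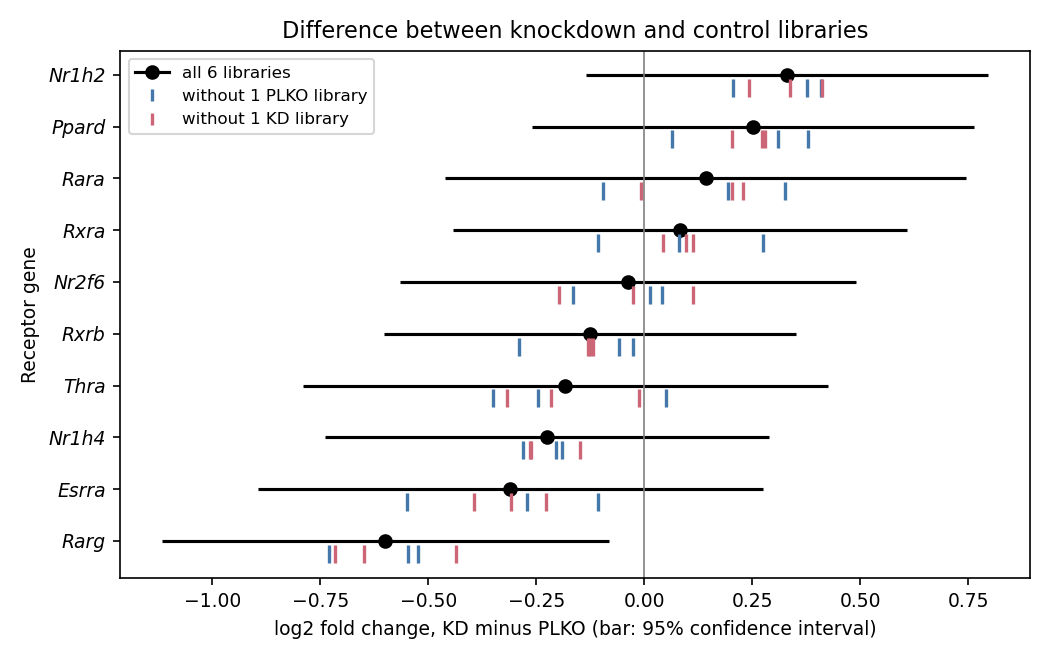
Log2 fold change (KD minus PLKO) of each receptor with its 95% confidence interval (points and bars, 6 libraries), and the value after leaving out each PLKO (blue) or KD (red) library (ticks). The point estimates run from -0.60 (Rarg) to 0.33 (Nr1h2), and the ticks of Rxra, Rara, Thra and Nr2f6 fall on both sides of 0.

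Nr1h4 had 4.56, 4.03 and 4.47 FPKM in PLKO 1, 2 and 3 and 3.93, 3.34 and 3.91 FPKM in KD 1, 2 and 3. Every KD library lay below every PLKO library, although the highest of KD and the lowest of PLKO were close. The log2 fold change was -0.23 (SE 0.23, 95% confidence interval -0.74 to 0.29) with a limma adjusted p of 0.54. The exact two-sided permutation test gave p = 0.1, the smallest that 3 libraries against 3 allow. On the linear scale KD stood at 85.5% of PLKO, with an interval from 59.9% to 122%. A difference from the control could therefore not be shown, and neither a moderate fall nor a small rise lies outside that interval.

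Nr1h4 was also the receptor with the fewest reads, although its SE in the test (0.227) was no larger than that of Rxra (0.232). Its reads numbered 188, 153 and 161 in the PLKO libraries and 138, 120 and 156 in the KD libraries, 916 in all. Counting error alone (the Poisson SD over the count) came to between 7.29% and 9.13% of a library's value. The spread between libraries was 6.56% in PLKO and 8.95% in KD (coefficient of variation), about the size of the counting error. Exact 95% Poisson intervals, which cover counting error only, ran from 3.41 to 4.72 FPKM in PLKO 2 and from 3.30 to 4.64 FPKM in KD 1, so these neighbouring libraries cannot be told apart by their reads.

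Rxra and Rxrb encode the retinoid X receptors alpha and beta, the shared partners of FXR and the other heterodimeric receptors. Rxra (chr2:27676440-27762957) had 23.6, 18.2 and 30.9 FPKM in PLKO and 24.6, 26.5 and 24.1 FPKM in KD. The KD libraries lay inside the PLKO range, between PLKO 1 and PLKO 3. KD minus PLKO was 0.08 in log2 units (SE 0.23, limma adjusted p = 0.84), and -0.11 without PLKO 2. Rxrb (chr17:34031812-34038399) had 23.8, 22.8 and 16.5 FPKM in PLKO and 19.2, 19.1 and 18.9 FPKM in KD, again inside the PLKO range. Its log2 fold change was -0.13 (SE 0.21, limma adjusted p = 0.72). PLKO 3 was the PLKO library with the most Rxra and the least Rxrb. The summed level of both genes was steadier than either gene in PLKO, with 47.4, 40.9 and 47.4 FPKM in PLKO and 43.8, 45.6 and 43.0 FPKM in KD.

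Nr1h2 encodes liver X receptor beta, a sensor of oxysterols that acts on cholesterol export and lipid synthesis genes. It lies at chr7:44549616-44553951 and had 31.0, 29.7 and 23.4 FPKM in PLKO and 34.6, 39.4 and 31.3 FPKM in KD. Each KD library was above each PLKO library, by a narrow margin between KD 3 and PLKO 1. The log2 fold change was 0.33 (SE 0.21, interval -0.14 to 0.80) with a limma adjusted p of 0.32 and an exact permutation p of 0.1. Between 1239 and 2094 reads covered it in each library.

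Ppard encodes peroxisome proliferator-activated receptor delta, a fatty acid sensor (chr17:28232700-28301474). It had 13.0, 11.7 and 8.38 FPKM in PLKO and 12.5, 13.8 and 12.4 FPKM in KD. The groups overlapped, with PLKO 1 above KD 1 and KD 3, and PLKO 3 was the lowest of the 6 libraries. On the log2 scale the difference was 0.25 (SE 0.23, interval -0.26 to 0.76, limma adjusted p = 0.49). Thra encodes thyroid hormone receptor alpha (chr11:98740638-98769006). It had 17.8, 20.6 and 31.1 FPKM in PLKO and 15.7, 20.8 and 23.9 FPKM in KD, and in both groups library 3 was the highest and library 1 the lowest. Thra's log2 fold change of -0.18 (SE 0.27, limma adjusted p = 0.69) turned to 0.050 without PLKO 3 and to 0.10 with array weights. From start to end, introns included, Thra shares 1075 bases with Nr1d1 on the opposite strand. No source used here says whether reads were counted by strand.

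The retinoic acid receptors alpha and gamma, Rara and Rarg, bind the vitamin A metabolite retinoic acid. Rarg (chr15:102234938-102257517) had the largest difference of the 10 receptors. Its level was 29.6, 28.6 and 22.2 FPKM in PLKO and 14.0, 18.8 and 20.6 FPKM in KD. All KD libraries lay below all PLKO libraries, but libraries 3 of both groups were close to each other, 22.2 against 20.6 FPKM. The log2 fold change was -0.60 (SE 0.23, interval -1.12 to -0.08), which puts KD at 66.0% of PLKO (46.1% to 94.4%). The unadjusted p was 0.028 and the limma adjusted p was 0.13, so Rarg was not called over all genes. Without both libraries numbered 3, an alternative chosen after seeing the data, the log2 fold change was -0.85 and the limma adjusted p 0.028, in a fit that called 27.9% of all tested genes. Rarg was covered by 918 to 2283 reads per library.

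Rara (chr11:98927818-98974942) had 17.4, 14.5 and 9.69 FPKM in PLKO and 13.6, 18.3 and 13.2 FPKM in KD. The groups overlapped over most of their range, and the log2 fold change of 0.14 (SE 0.27, limma adjusted p = 0.75) turned to -0.095 without PLKO 3 and to -0.0077 without KD 2. The ratio of Rarg to Rara, from which any scaling of a whole library cancels, was 1.70, 1.98 and 2.29 in PLKO and 1.02, 1.03 and 1.56 in KD. Rarg was thus above Rara in every PLKO library, and close to it in KD 1 and KD 2. This and the other ratios were chosen after the values were seen and are given without a test.

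Nr2f6 and Esrra stand outside the retinoid X receptor partners. Nr2f6, or EAR2, is an orphan receptor of the COUP-TF family (chr8:71374123-71381960), with 18.5, 13.9 and 17.7 FPKM in PLKO and 15.9, 20.1 and 13.1 FPKM in KD. The groups overlapped fully, and the log2 fold change of -0.04 (SE 0.23, limma adjusted p = 0.93) took the other sign in 6 of 17 alternative fits. From start to end, introns included, the Nr2f6 gene shares 5239 bases with Ocel1 on the opposite strand. The exons of Nr2f6 hold 2983 bases, and their overlap was not measured. Esrra encodes estrogen-related receptor alpha, a regulator of mitochondrial genes with no natural estrogen ligand (chr19:6910977-6921813). It had 18.3, 23.0 and 12.5 FPKM in PLKO and 12.5, 15.7 and 14.0 FPKM in KD, so that PLKO 3 was level with KD 1, the lowest KD library, and the other PLKO libraries were above all of KD. Its difference was -0.31 in log2 units (SE 0.26, interval -0.89 to 0.27, limma adjusted p = 0.46).

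The libraries of a group did not deviate alike. PLKO 3 was the highest or lowest PLKO library for 8 of the 10 receptors, highest for Rxra and Thra and lowest for 6. PLKO 1 was at an extreme of PLKO for 8 as well, and KD 3 at an extreme of KD for 8, so this count does not set PLKO 3 apart. The median deviation of PLKO 3 from the PLKO mean was 0.35 on the log2 scale over the 10 receptors, against 0.23 over all tested genes. In PLKO 1 and PLKO 2 the receptors deviated by 0.16 and 0.12, and in the KD libraries by 0.06 to 0.13. The heat map of receptor deviations shows Nr1h2, Ppard and Rxra above the PLKO mean in all KD libraries. Nr1h4, Rxrb, Rarg and Esrra lie below it in all of them. PLKO 3 and PLKO 1 lie on opposite sides of it for Rxrb, Nr1h2, Ppard, Rara, Rarg, Thra and Esrra, and barely so for Rxra (PLKO 1 at -0.0045).

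**Figure D3:**
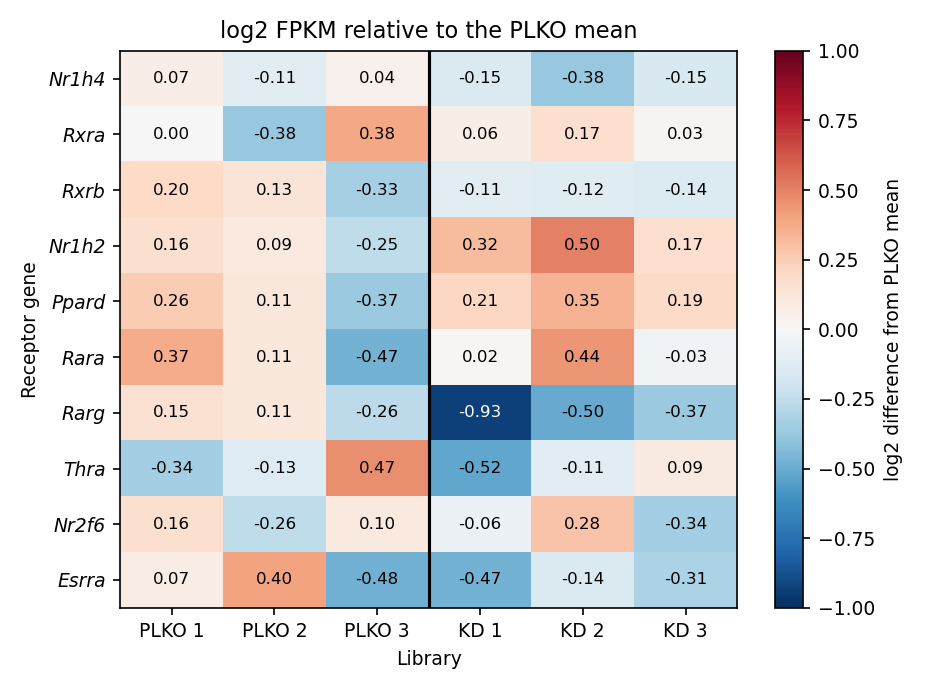
Log2 FPKM of each receptor in each library minus the mean of the 3 PLKO libraries. Red is above and blue below the PLKO mean, and the numbers are the log2 differences. The lowest value is -0.93 (Rarg in KD 1) and the highest 0.50 (Nr1h2 in KD 2).

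Retinoid X receptors are shared by their partners, so the makeup of the receptor pool was described within each library. The summed level of the 6 partners Nr1h4, Nr1h2, Ppard, Rara, Rarg and Thra was 107 ± 7.25 FPKM in PLKO and 105 ± 10.0 FPKM in KD. This was 2.38 ± 0.286 and 2.37 ± 0.191 times the summed level of Rxra and Rxrb (mean ± SD, n = 3). Both quantities overlapped between the groups, while the shares of single partners in the sum did not all do so.

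Nr1h2 made up 27.4%, 27.2% and 23.6% of the partner sum in PLKO and 36.7%, 34.5% and 29.7% in KD. Rarg made up 26.1%, 26.2% and 22.4% in PLKO and 14.8%, 16.4% and 19.6% in KD. The shares of both genes did not overlap between the groups, and library 3 of each group lay nearest to the other group for Rarg. Ppard's share did not overlap either, with 11.4%, 10.8% and 8.45% in PLKO and 13.3%, 12.1% and 11.8% in KD. Nr1h4 stood at 9.62%, 9.83% and 9.43% of the summed retinoid X receptor level in PLKO and at 8.97%, 7.33% and 9.10% in KD. The ratio of Rxra to Rxrb was 0.990, 0.799 and 1.87 in PLKO and 1.28, 1.39 and 1.28 in KD, so Rxra exceeded Rxrb in PLKO 3 and in all KD libraries, and was at or under it in PLKO 1 and PLKO 2. Shares of a sum are not independent of each other: where Rarg takes less, the others take more.

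**Figure D4:**
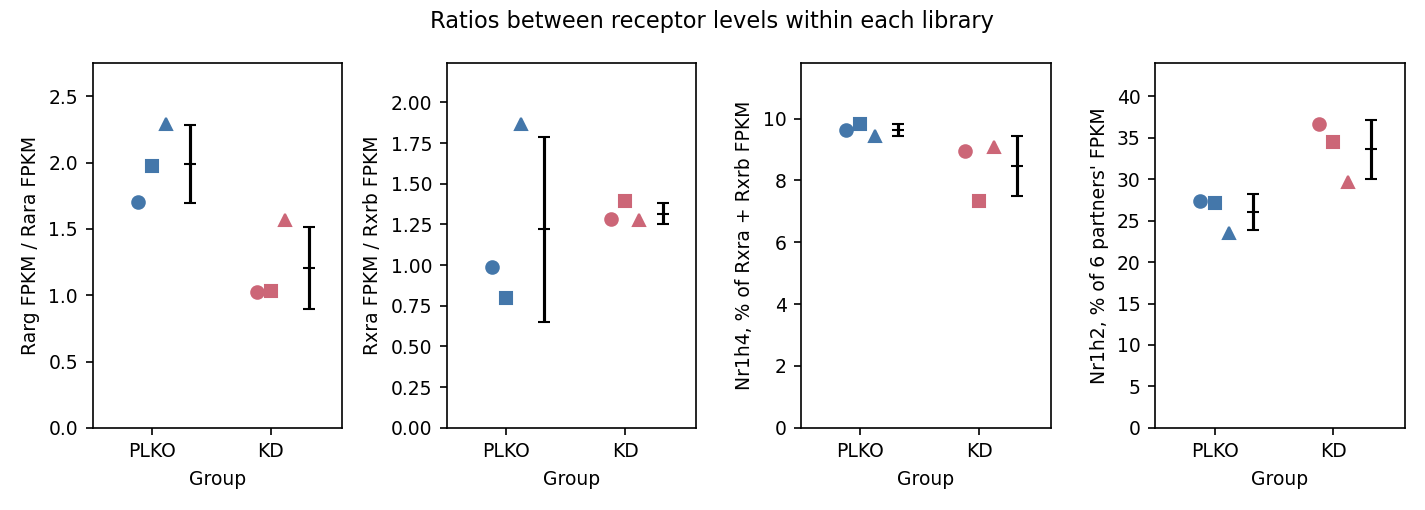
Ratios between receptor FPKM within each library (circles, squares and triangles are libraries 1, 2 and 3), with mean and SD (n = 3). Rarg over Rara is 1.70 to 2.29 in PLKO and 1.02 to 1.56 in KD, and the share of Nr1h2 in the partner sum is 23.6% to 27.4% in PLKO and 29.7% to 36.7% in KD.

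Promoter sequences were compared for what the receptors share apart from their protein family. RefSeq promoters (GRCm38.p6, 250 bases before to 50 after a start) were found for 9 of the 10 receptors, 15 promoters in all. The observed-to-expected CpG ratio was above the median of all 32841 promoters (0.384) in 11 of the 15. The GC box GGGCGG, bound by Sp1 family factors, was present on either strand in 10 of 15 promoters, of 7 receptors, against 35.7% of all promoters. The nuclear receptor core AGGTCA was present in 4 of 15, of 4 receptors, against 16.3%. The E-box CACGTG, to which MYC can bind, was present in 2 overlapping windows of Rara, against 7.15%, and TATAAA in none of the 15, against 13.6%. The ETS core CCGGAAG, searched after the sequence of the Nr1h2 promoter was seen, was present in 2 of 15 (of Nr1h2 and Rxrb), against 8.86%. Matches are descriptions of letters and not binding sites.

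The upstream parts of the promoters are shown for the 3 receptors whose groups did not overlap. All are on the minus strand and written 5′ to 3′, ending at the base before the start. Capitals mark AGGTCA (here as TGACCT on the other strand) in Nr1h4, the ETS core on either strand (CCGGAAG or CTTCCGG) in Nr1h2, and AGGTCA and the GC box (GGGCGG or CCGCCC) in Rarg, where 2 of the 3 GC boxes overlap by 1 base. They cover chr10:89506659-89506908, chr7:44553966-44554215 and chr15:102257523-102257772.

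Nr1h4: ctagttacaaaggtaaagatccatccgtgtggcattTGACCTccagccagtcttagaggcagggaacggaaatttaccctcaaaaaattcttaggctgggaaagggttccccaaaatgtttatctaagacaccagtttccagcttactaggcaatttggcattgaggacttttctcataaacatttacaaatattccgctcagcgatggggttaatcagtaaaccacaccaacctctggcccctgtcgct

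Nr1h2: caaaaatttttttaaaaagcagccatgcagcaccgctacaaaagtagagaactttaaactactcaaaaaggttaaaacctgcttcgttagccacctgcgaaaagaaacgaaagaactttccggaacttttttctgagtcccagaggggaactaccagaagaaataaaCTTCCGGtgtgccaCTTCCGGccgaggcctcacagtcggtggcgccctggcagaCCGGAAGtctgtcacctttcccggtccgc

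Rarg: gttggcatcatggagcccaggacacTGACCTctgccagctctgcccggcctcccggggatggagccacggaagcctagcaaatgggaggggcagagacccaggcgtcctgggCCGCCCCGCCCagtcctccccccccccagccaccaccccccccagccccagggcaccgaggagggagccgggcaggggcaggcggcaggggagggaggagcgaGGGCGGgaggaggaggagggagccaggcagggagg

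The 3 promoters differ in makeup, with a CpG ratio of 0.449 for Nr1h4 (percentile 54.7 of all promoters), 0.988 for Nr1h2 (percentile 93.4) and 0.335 for Rarg (percentile 45.7). Nr1h4 and Rarg each hold AGGTCA well upstream, at -214 and -225 from the start, and the Nr1h2 window holds none. A second Rarg promoter, at chr15:102246451-102246750, holds none of the motifs.

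Sf3b3, the gene targeted by the hairpin and a subunit of the SF3b complex of the spliceosome, had 22.6, 28.7 and 29.2 FPKM in PLKO and 10.3, 9.56 and 13.9 FPKM in KD. Its log2 level fell by 1.26 (SE 0.23, limma adjusted p = 0.037), a call that was lost when PLKO 1, PLKO 2, KD 1 or KD 2 was left out. The listed genes held from 15140441 to 17566101 reads per library. Of hepatocyte markers, 4 of 20 were listed (Afp, Apoe, Foxa1 and Rbp4), with a summed level of 25.9 to 40.8 FPKM in PLKO and 32.9 to 35.4 FPKM in KD, and Alb, Ttr, Apoa1 and Hnf4a are not in the table used here. Cholangiocyte and progenitor markers (6 of 9 listed, among them Krt19, Krt8 and Sox9) summed to 188 to 329 FPKM in PLKO and 190 to 336 in KD. Fibroblast and stellate cell markers (6 of 10 listed) summed to 103 to 158 FPKM in PLKO and 53.1 to 76.5 in KD. Most of this sum was Col3a1 (means 47.0 in PLKO and 19.8 in KD) and Pdgfrb (63.0 and 32.5). Pdgfra differed in the other direction (9.99 and 11.9), with overlapping groups. Col1a1, Col1a2 and Des were low, with group means from 0.128 to 1.51 FPKM. Leukocyte markers (2 of 8 listed, Cd68 and Cd79a, with Ptprc not in the table used here) summed to 10.1 to 42.2 FPKM in PLKO and 46.9 to 98.9 in KD, and none of 6 endothelial markers was listed. The leukocyte sum was mostly Cd68. All libraries are bulk RNA of 1 cultured line, so the sums are levels of genes and not shares of cell types. A changed number of cells and changed RNA per cell cannot be told apart in them. The part of these differences in the receptor values was not tested.

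Of 39 other nuclear receptor genes looked for, 18 were listed and 15 tested. None was called by limma, 1 was called by voom, and 7 had an unadjusted p under 0.05, as did 27.6% of all tested genes. Their median log2 fold change was 0.58, with 10 positive and 5 negative, and the groups did not overlap for 8 higher and 2 lower, against 13.4% higher and 18.8% lower over all tested genes. With the replicate number as a block, 5 rose and 2 fell, in a fit that called 19.3% of all tested genes. The block rests on a pairing that no label states. The members with the lowest unadjusted p were Nr1d1, Rora, Nr4a1 and Nr4a2.

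Nr1h5, which encodes FXR-beta, the receptor closest in sequence to FXR, was chosen after its values were seen. Its level was 16.3, 11.4 and 19.9 FPKM in PLKO and 9.69, 7.24 and 10.7 FPKM in KD, above Nr1h4 in every library. All KD libraries lay below all PLKO libraries, with a log2 fold change of -0.76 (SE 0.27; limma adjusted p = 0.11, with the block 0.027). FXR-beta is a functional lanosterol-responsive receptor in mice and a pseudogene in humans.

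Rora, an activator of clock genes, had 0.482, 0.677 and 0.695 FPKM in PLKO and 2.74, 1.69 and 1.59 FPKM in KD. The difference was 1.67 in log2 units (SE 0.41, limma adjusted p = 0.059, and 0.019 under the block). Nr1d1, the clock repressor Rev-erb alpha that overlaps Thra, had 6.77, 9.25 and 6.79 FPKM in PLKO and 21.5, 16.2 and 12.2 FPKM in KD. For it the log2 fold change was 1.11 (SE 0.26, limma adjusted p = 0.057, and 0.010 under the block). The groups of both genes did not overlap, with every KD library above every PLKO library. Nr4a1 (Nur77), an immediate early gene, had 6.19, 7.70 and 4.89 FPKM in PLKO and 10.4, 11.1 and 14.0 FPKM in KD. Nr4a2 (Nurr1), of the same family, had 1.96, 2.11 and 5.90 FPKM in PLKO and 7.25, 7.71 and 7.30 FPKM in KD. PLKO 3 stood between the other PLKO libraries and KD for Nr4a2. Their log2 fold changes were 0.93 (SE 0.24, limma adjusted p = 0.063, and 0.022 with the block) and 1.36 (SE 0.40, limma adjusted p = 0.081, and 0.013 with the block).

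Coregulators bind the receptors' ligand-binding domains. Of 24 coactivators, 23 were tested and limma called none (7 at an unadjusted p under 0.05, none by voom), with a median log2 fold change of 0.14. Over all tested genes, 27.6% had an unadjusted p under 0.05. Ncoa1, the steroid receptor coactivator SRC-1, had 7.34, 8.08 and 9.91 FPKM in PLKO and 2.84, 2.52 and 5.81 FPKM in KD. The groups did not overlap, and KD 3 lay nearest to PLKO. KD minus PLKO was -1.27 in log2 units (SE 0.33; limma adjusted p = 0.064, 0.0069 under the block). Prmt1, an arginine methyltransferase of histone H4, had a log2 fold change of -0.80 (limma adjusted p = 0.084, and 0.029 under the block). Ncoa5 had -0.79 (limma adjusted p = 0.13; block, 0.030) and Ncoa7 1.34 (limma adjusted p = 0.086; block, 0.027).

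Of 14 corepressors, all tested, limma called none (3 at an unadjusted p under 0.05, none by voom), and the median was -0.01. This count also stands beside 27.6% of all tested genes at an unadjusted p under 0.05. Sin3a, the scaffold of a histone deacetylase complex, had 18.5, 16.0 and 14.6 FPKM in PLKO and 35.8, 35.5 and 23.1 FPKM in KD. Every KD library was above PLKO, and KD 3 was nearest to it. KD minus PLKO was 0.92 in log2 units (SE 0.24, limma adjusted p = 0.062, and 0.015 under the block). Nrip1 (RIP140), a corepressor recruited by ligand-bound receptors, had a log2 fold change of 0.79 (limma adjusted p = 0.096, and 0.037 with the block), and Hdac7, a class II histone deacetylase, 0.70 (limma adjusted p = 0.10). Nsd1, a histone methyltransferase, had the other sign, -0.81 (limma adjusted p = 0.25).

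Few target genes of FXR were available: of 30 genes of FXR and bile acid metabolism looked for, 5 were listed and tested. Of these 1 fell and none rose, against 1.79% lower and 1.12% higher over all tested genes, and the median log2 fold change was -1.47. Acox2, a peroxisomal oxidase that shortens the side chain of bile acid precursors, had 4.21, 4.15 and 2.88 FPKM in PLKO and 0.399, 0.271 and 1.34 FPKM in KD. Acox2 fell by 2.81 in log2 units (SE 0.58, limma adjusted p = 0.044), on 167 to 280 reads per PLKO library and 14 to 85 per KD library. KD 3 was the highest KD library and PLKO 3 the lowest PLKO library. Pltp, the phospholipid transfer protein, had 15.0, 19.5 and 19.8 FPKM in PLKO and 3.23, 6.65 and 12.7 FPKM in KD, with a log2 fold change of -1.47 (SE 0.43, limma adjusted p = 0.080, and 0.0062 under the block). Fetub, a fetuin secreted by liver, had a log2 fold change of -1.81 (SE 0.62, limma adjusted p = 0.11, and 0.0041 under the block). Sdc1, a heparan sulfate proteoglycan, had -0.40 (limma adjusted p = 0.27).

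Of 23 retinoid genes, 14 were listed and 13 tested, with a median of -0.19. Among them 2 rose and none fell, against 1.12% higher and 1.79% lower over all tested genes. Crabp2, which delivers retinoic acid to its nuclear receptors, had 0.551, 1.04 and 2.29 FPKM in PLKO and 8.70, 5.92 and 5.99 FPKM in KD. Crabp2 rose by 2.63 in log2 units (SE 0.48, limma adjusted p = 0.038), on 11 to 46 reads per PLKO library and 122 to 176 per KD library. Rdh11, a retinal reductase, had 17.8, 11.7 and 21.7 FPKM in PLKO and 37.8, 39.6 and 38.3 FPKM in KD, and rose by 1.22 (SE 0.25, limma adjusted p = 0.044). The groups did not overlap for either gene. Rai14, named for its induction by retinoic acid, had a log2 fold change of -0.75 (SE 0.19, limma adjusted p = 0.062, and 0.030 under the block). Dhrs3, another retinal reductase, had -1.08 (limma adjusted p = 0.14).

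Of 16 liver X receptor targets, 11 were listed and 10 tested, with a median of 0.26. In this list 1 fell and none rose, against 1.79% lower and 1.12% higher over all tested genes. Lpcat3, which puts polyunsaturated fatty acids into phospholipids, had 20.9, 23.8 and 20.8 FPKM in PLKO and 7.66, 9.81 and 12.7 FPKM in KD. Lpcat3 fell by 1.15 in log2 units (SE 0.23, limma adjusted p = 0.044). Fasn, the fatty acid synthase, differed by 0.76 on the log2 scale, with a limma adjusted p of 0.084 that the block lowered to 0.035. Apoe had 0.94 (limma adjusted p = 0.28).

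Of 22 PPAR targets, 15 were listed and 13 tested. Limma called none (4 at an unadjusted p under 0.05, none by voom), the median was -0.53, and 3 fell with the block. These shares stand beside 27.6% of all tested genes at an unadjusted p under 0.05 and 19.3% called with the block. Ucp2, a mitochondrial carrier, had 46.0, 38.5 and 47.2 FPKM in PLKO and 10.2, 17.3 and 29.3 FPKM in KD, with a log2 fold change of -1.34 (SE 0.35, limma adjusted p = 0.063, and 0.0080 under the block). The fatty acid oxidation genes Hadha and Acadvl had -0.86 and -0.83 (limma adjusted p = 0.081 and 0.088; block, 0.020 and 0.023). Of 14 thyroid hormone genes, 7 were listed and 6 tested, with a median of -0.15. Here 1 gene fell, against 1.79% lower over all tested genes. It was Trip13, which fell by 1.54 (SE 0.26, limma adjusted p = 0.032). Despite a name that comes from thyroid receptor interaction, TRIP13 is known as an ATPase of the mitotic checkpoint. The other members named by the rule, Hr, Slc16a10 and Trip12, had -0.38, -0.24 and 0.17.

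Of 20 targets of estrogen-related receptors and the coactivator PGC-1, 19 were tested. Limma called none (3 at an unadjusted p under 0.05, against 27.6% of all tested genes), voom called 1, and the median was -0.20. Ndufs1, a subunit of respiratory complex I, had 14.2, 18.7 and 15.7 FPKM in PLKO and 5.96, 6.68 and 9.99 FPKM in KD. The log2 fold change was -1.13 with a limma adjusted p of 0.050, just above the threshold, and 0.0084 with the block. Etfa, which passes electrons from fatty acid oxidation to the respiratory chain, had -0.77 (limma adjusted p = 0.081, and 0.031 with the block), and Sod2 and Atp5a1 had -0.45 and -0.39. The plot of the gene lists sets these beside the receptors. The 5 calls in the target lists (Acox2, Crabp2, Rdh11, Lpcat3 and Trip13) were each lost when PLKO 1, PLKO 2, KD 1 or KD 2 was left out, as were all calls over all genes.

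**Figure D5:**
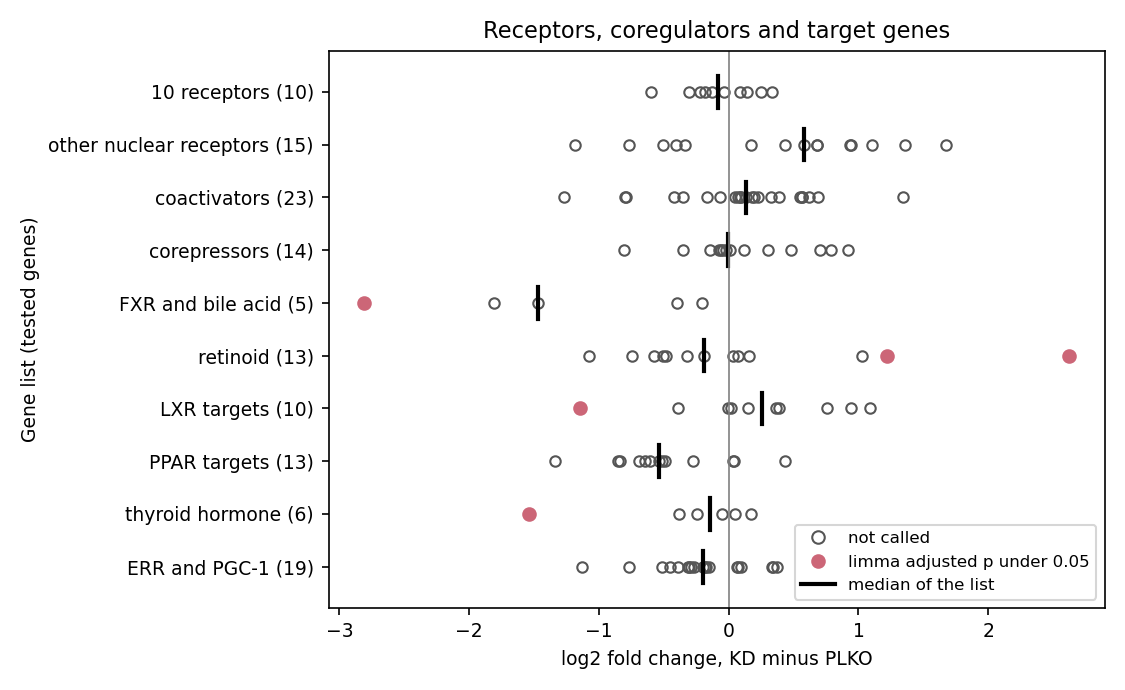
Log2 fold change (KD minus PLKO) of each tested gene in the receptor group and in each list of coregulators and target genes, with the median of each list as a line and the number tested in parentheses. Filled points passed the limma test. The 10 receptors lie between -0.60 and 0.33, while 5 genes of the target lists passed, between -2.81 (Acox2) and 2.63 (Crabp2).

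The pattern of Nr1h4 over the 6 libraries was followed most closely by Specc1l, Cxxc5, Gpcpd1, Klhdc1 and Dzip3 (Pearson r of log2 values 0.988, 0.976, 0.973, 0.968 and 0.966). Predicted genes and genes named after clones were left out of this ranking. With them included, 50 tested genes (0.464%) had r of at least 0.9. The log2 fold changes of the 5 named genes were -0.16, -0.39, -0.92, -0.97 and -0.73, none called (limma adjusted p from 0.10 to 0.61). Among the other receptors, r with Nr1h4 was -0.79 for Nr1h2, -0.57 for Ppard, -0.46 for Rara and 0.51 for Rarg, and between -0.09 and 0.19 for the other 5. The 6 libraries share their group structure, and the values are descriptions of 6 points.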

How the data were processed

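Poly(A) RNA of 6 libraries was measured, 3 per group. The authors deposited log2 FPKM per gene and library. The unit was read from the values, which run from -7.85 to 13.2. The submitters' processing notes name the build GRCm38 and the read quality tool FastQC 0.11.7. Which aligner and counter made the values, whether strand was used, and how the 11866 genes were selected is not given in the sources used here. Low values hold a prior of 2 reads on average. The steps above it gave back whole reads for 100% of genes (tolerance 0.01 reads), which are printed as depth. Reads on the listed genes were 0.938 (PLKO 1) to 1.04 (PLKO 2) times the library size behind the values. That size was therefore not the plain total of a library's reads. The values of genes with few reads are drawn together by this prior, so their fold changes are understated.

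Levels are powers of 2 of the deposited values, printed as mean ± SD. The test was limma 3.58.1 (R 4.3.3) on the deposited log2 scale, with a trend of variance on mean level. It covered the 10770 genes whose mean FPKM reached 1, with the group alone in the model (4 residual degrees of freedom). Each gene's variance was drawn toward that trend, so SEs, intervals and p-values also use the spread of other genes. Benjamini-Hochberg adjusted p under 0.05 over all tested genes was called. The main fit was also run on values simulated for each gene independently. Their libraries do not deviate together over many genes, so that run cannot test the effect of such deviations. Positions come from GENCODE M21, in which 97.5% of listed genes matched 1 gene, and promoters from RefSeq.

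The members and gene lists were chosen with earlier results of these data known. Named genes are the 10 receptors, Sf3b3, up to 4 tested members of each list with the lowest unadjusted p, and 5 genes correlated with Nr1h4. These 5 are the most correlated ones after predicted and clone-named genes are left out. Not every gene the rule takes is printed.

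Deviations from the group means correlated at 0.18, 0.29 and 0.50 for libraries numbered 1, 2 and 3, all above 0.1. Equal numbers were therefore treated as pairs in the block fits, and the main test left them unpaired. No label states this pairing, which was read from the data. PLKO 1 correlated more with KD 2 (0.27) than with KD 1, and PLKO 2 about as much with KD 1 (0.30) as with KD 2. The block p-values thus rest on pairs of which the correlations single out only that of the libraries numbered 3. Fits with the replicate number as a block are given beside receptors and list genes whose call they change. Other pseudocounts, filters, scalings and tools, and leaving out each library, were alternatives.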

Additional observations from a re-analysis of the deposited data

How the results depend on the processing

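Every fit was repeated under 17 alternatives, 1 of them (without both libraries numbered 3) added after seeing the data. The count of genes called, 314 with all libraries, was 2080 with the replicate block, 6030 with array weights, 151 without the mean-variance trend, 3009 without both libraries numbered 3, and 0 to 1744 when 1 library was left out. It was 0 without PLKO 1, PLKO 2, KD 1 or KD 2 (2217, 2315, 1818 and 1793 at an unadjusted p under 0.05), 801 without PLKO 3 and 1744 without KD 3. The calls in the gene lists, 5 with all libraries, were 29, 60, 3, 33 and 0 to 23 under the same settings.

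No receptor was called with the block or when any 1 library was left out. With array weights 3 were called: Nr1h4 (-0.42, limma adjusted p = 0.020) and 2 other receptors, Nr1h2 and Rarg. The estimation of these weights stopped before converging and gave KD 2 a weight of 44.7, against 0.214 to 1.94 for the others. Without both libraries numbered 3 the 1 receptor called was Rarg. Nr1h4 was negative in all 16 alternatives that gave a value, from -0.42 to -0.14, and had no value under the filter at a mean of 5 FPKM.

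The log2 fold changes of 5 genes changed sign. With 1 library left out they ran from -0.11 to 0.28 for Rxra, -0.095 to 0.33 for Rara, -0.35 to 0.050 for Thra, -0.20 to 0.11 for Nr2f6 and -0.52 to 0.014 for Slc16a10. Array weights gave 0.10 for Thra and 0.18 for Nr2f6, equal medians 0.015 for Nr2f6, and leaving out both libraries numbered 3 gave -0.0074 for Rara and 0.16 for Nr2f6. The cause was not tested. With 3 libraries a group, the interval of Nr1h4 reaches from 59.9% to 122% of control, and no value separates its splice forms.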

Other observations

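Other nuclear receptor genes outside the naming rule were chosen after their values were seen. The first of them showed how far a single library can set a group. Vdr, the vitamin D receptor, had 7.04, 6.84 and 8.20 FPKM in PLKO and 1.36, 2.57 and 9.60 FPKM in KD. KD 3 was the highest of all 6 libraries while KD 1 and KD 2 were the lowest. The log2 fold change was -1.19 (SE 0.59, limma adjusted p = 0.23, and 0.045 with the block). Without both libraries numbered 3 it was -1.89 (limma adjusted p = 0.0056).

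Nr3c1, the glucocorticoid receptor, was at 21.6, 17.3 and 28.0 FPKM in PLKO and 30.0, 30.6 and 38.4 FPKM in KD. Every KD library was above every PLKO library, and the log2 fold change was 0.58 (SE 0.24, limma adjusted p = 0.15). Nr1d2, the clock repressor Rev-erb beta, had 18.5, 17.7 and 24.3 FPKM in PLKO and 36.2, 27.7 and 32.7 FPKM in KD (0.68, SE 0.21, limma adjusted p = 0.091, and 0.046 with the block).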
